A study of Mus musculus with 16 samples.

Results

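The comparison described here is that of Foxo3 knockout with wild-type macrophages, both treated with dexamethasone. It was defined by the sample labels and takes 8 of the 16 libraries of the series, 4 labelled FOXO3-/- and 4 labelled wildtype. All were bone marrow-derived macrophages of FVB/N mice, grown for 5 to 7 days in DMEM with 20% serum and 30% medium conditioned by L929 cells (a fibroblast line that secretes macrophage growth factor), and then exposed to 100 nM dexamethasone for 24 h. The other 8 libraries, 4 of each genotype, received the vehicle DMSO. They entered the statistical model and served as a comparison. The sources used here do not state the age of the mice, which part of Foxo3 was deleted, or whether replicates came from separate animals or cultures. The p-values therefore reflect only how these libraries varied, and that variation may be technical.

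FOXO3 is a forkhead transcription factor that is held outside the nucleus when insulin or growth factor signalling activates the kinase AKT, and that enters the nucleus when this signalling is low. Its known targets include genes of cell cycle arrest, antioxidant defence, autophagy and insulin signalling itself. Dexamethasone is a synthetic ligand of the glucocorticoid receptor, encoded by Nr3c1, which raises genes such as Fkbp5 and Tsc22d3 in macrophages and lowers inflammatory and interferon-induced genes. The series title places the study at the meeting of FOXO3 and glucocorticoid signalling. Marrow cultures can also retain adherent stromal cells, which make collagen.

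Expression was given as FPKM, a fragment count corrected for exon length and library depth. The reads on genes behind these values came to between 16886745 and 20584573 per library, and 1 FPKM of a 2 kb gene rested on 32.9 to 39.7 reads. A gene was tested if it reached 1 FPKM in at least 4 of the 16 libraries, which left 11654 genes. Differences are given as knockout minus wild type on the log2(FPKM + 1) scale, with the standard error, and understate the change of genes at low FPKM. A gene is said to differ where limma gave a Benjamini-Hochberg adjusted p under 0.05 over all genes tested. Within each genotype and treatment, libraries differed widely in fibroblast transcripts. WT vehicle replicate 3, WT dexamethasone replicate 4 and KO vehicle replicate 4 stood apart from the rest of their groups in Col1a1, with 6.77, 19.1 and 95.8 FPKM.

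The level of Foxo3 did not check the labels. The gene (ENSMUSG00000048756) spans 42181841 to 42276755 of chromosome 10 in GRCm38, minus strand. It measured 22.9, 24.6, 24.2 and 26.4 FPKM in the knockout libraries and 24.2, 21.9, 22.7 and 23.8 FPKM in the wild-type libraries, so the groups overlapped (24.5 ± 1.44 against 23.2 ± 1.07 FPKM, SD, n = 4 each, two-sided exact permutation p = 0.171, smallest possible p 0.0286). The value counts every annotated exon of the gene, so loss of some of them may leave it high. Other genes did separate the labels in all 16 libraries. Angptl7, a secreted protein of the angiopoietin-like family, lay between 13.3 and 16.9 FPKM in the 8 knockout libraries and between 0.0564 and 0.401 FPKM in the 8 wild-type libraries. Angptl7 was picked for its difference between these labels under dexamethasone, so its separation there was fixed by the choice. It is no independent check of the labels. The directions below rest on the labels.

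The libraries carried the transcripts of macrophages at high levels in both genotypes. Csf1r, the receptor for macrophage colony-stimulating factor, measured 756 ± 55.8 FPKM in knockout and 700 ± 62 FPKM in wild type (SD, n = 4), and the lysosomal glycoprotein gene Cd68 measured 825 ± 57.5 and 767 ± 119 FPKM. Neither differed (limma adjusted p = 0.529 and 0.49). Transcripts of most other blood lineages were near 0: of 8 mast cell and basophil markers none reached 1 FPKM in any of the 8 libraries, nor did any of 7 erythroid markers, 9 of 11 neutrophil markers, 11 of 14 lymphocyte markers or 7 of 9 dendritic cell markers. The neutrophil markers Ly6g and Retnlg were at 0 in all 8 libraries. Of 8 endothelial markers 4, and of 12 adipocyte and osteoblast markers 4, stayed under 1 FPKM in all 8 libraries. Some of the others were found in both genotypes, such as Vwf at 1.97 to 3.55 FPKM in knockout and 2.14 to 3.66 FPKM in wild type, and others mostly in wild type. Adipoq, an adipocyte hormone gene, was at 0 in all 4 knockout libraries and between 1.21 and 16.8 FPKM in the wild-type libraries, and Cdh5, the cadherin of endothelial junctions, lay between 0.0136 and 0.0750 FPKM in knockout and between 0.357 and 9.46 FPKM in wild type.

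Collagen transcripts differed widely between the libraries. Col1a1, a chain of type I collagen, measured 1.18, 1.20, 14.95 and 25.5 FPKM in knockout replicates 1 to 4 and 355.5, 159, 286 and 19.1 FPKM in wild-type replicates 1 to 4. Wild-type replicate 4 thus fell between knockout replicates 3 and 4, and all other wild-type libraries were above every knockout library. A collagen score was taken as the mean log2(FPKM + 1) of Col1a1, Col1a2 and Col3a1. It was 1.03, 0.970, 3.46 and 4.01 in knockout and 7.71, 6.87, 7.58 and 3.73 in wild type. The means were 2.37 ± 1.60 and 6.47 ± 1.86 (SD, n = 4), a difference of -4.11 with a two-sided exact permutation p of 0.0571. Without wild-type replicate 4 the difference was -5.02 and the exact permutation p was 0.0286, which 35 splits cannot go below. In bulk RNA, fewer fibroblasts and less collagen RNA per fibroblast cannot be told apart.

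**Figure D1:**
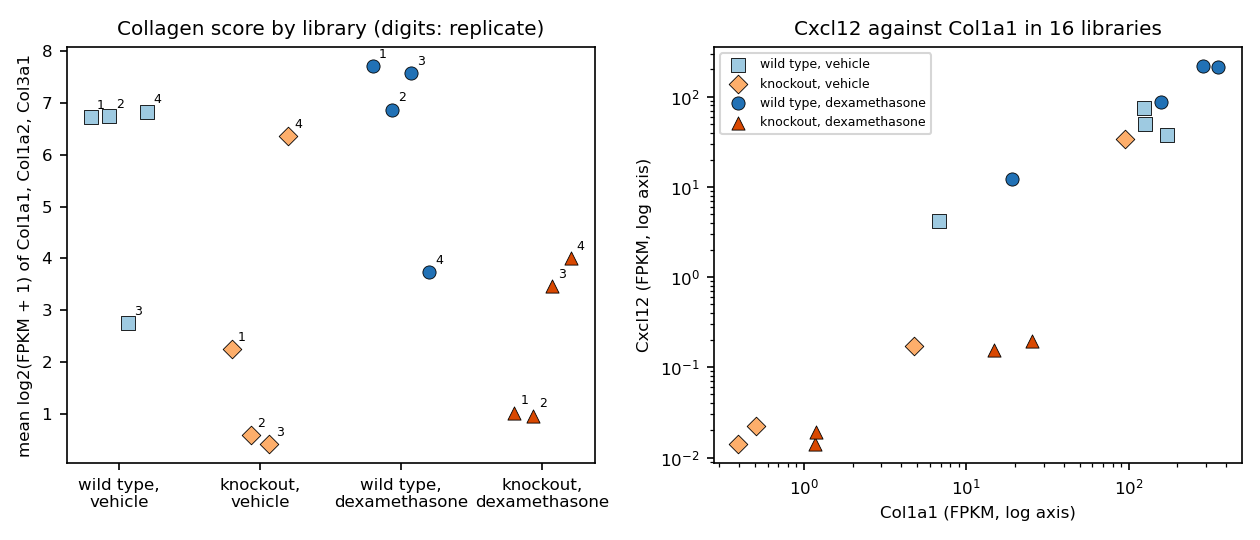
Left, the collagen score of each of the 16 libraries by genotype and treatment, with the replicate number beside each point. Right, Cxcl12 against Col1a1 in the same libraries, in FPKM on log axes; knockout dexamethasone replicates 3 and 4 held 14.95 and 25.5 FPKM of Col1a1 with 0.154 and 0.197 FPKM of Cxcl12, and wild-type dexamethasone replicate 4 held 19.1 FPKM with 12.2 FPKM.

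Under dexamethasone 3114 genes differed between the genotypes (26.7% of those tested), 1672 higher in knockout (14.3%) and 1442 lower (12.4%). Most differences were small, and 582 of the 3114 reached 1 on the log2 scale, 87 of them higher and 495 lower in knockout. In 3080 genes (26.4%) the 4 knockout and 4 wild-type libraries did not overlap. The count moved with the libraries used: it was 1708 without knockout replicate 1, 1815 without knockout replicate 2, 1517 without wild-type replicate 1 and 1600 without wild-type replicate 3. With median-ratio scaling the calls were 47.1% higher, against 53.7% with the deposited scaling and 59.1% with quantile normalization, so neither direction was called more often under all 3.

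To separate macrophage from fibroblast genes, the model was fitted again with the collagen score as a covariate, and the slope on the score was read within groups. The slope passed for 3180 genes (27.3%), 1411 rising and 1769 falling with the score, and for 2020 without wild-type vehicle replicate 3. Of the 1442 genes lower in knockout, 691 (47.9%) rose with the collagen score, and of the 1672 higher in knockout, 517 (30.9%) fell with it. With the covariate 914 genes differed (7.84%), 452 higher (3.88%) and 462 lower (3.96%). Of these, 706 had also differed in the same direction without it (6.06% of genes tested), 389 higher (3.34%) and 317 lower (2.72%), and none of the 3114 differed in the opposite direction. These 706 genes are called robust to collagen below. In 692 of them (5.94%) the 2 groups of libraries did not overlap. The adjustment draws on the vehicle libraries: fitted on the 8 dexamethasone libraries alone, the covariate left 124 genes, 100 of them among the 706. Without the 3 libraries that stood apart in Col1a1 it left 729 genes, with 233 of the 706 called in the same direction and 2 of opposite sign. Without wild-type replicate 4 alone 1392 genes differed with the covariate, 584 of the 706 among them. Among the 9 libraries of the series with Col1a1 under 50 FPKM, where that replicate is the lone wild-type library under dexamethasone and borrows its spread from the rest, 390 genes differed and 255 of the 706 did so in the same direction.

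**Figure D2:**
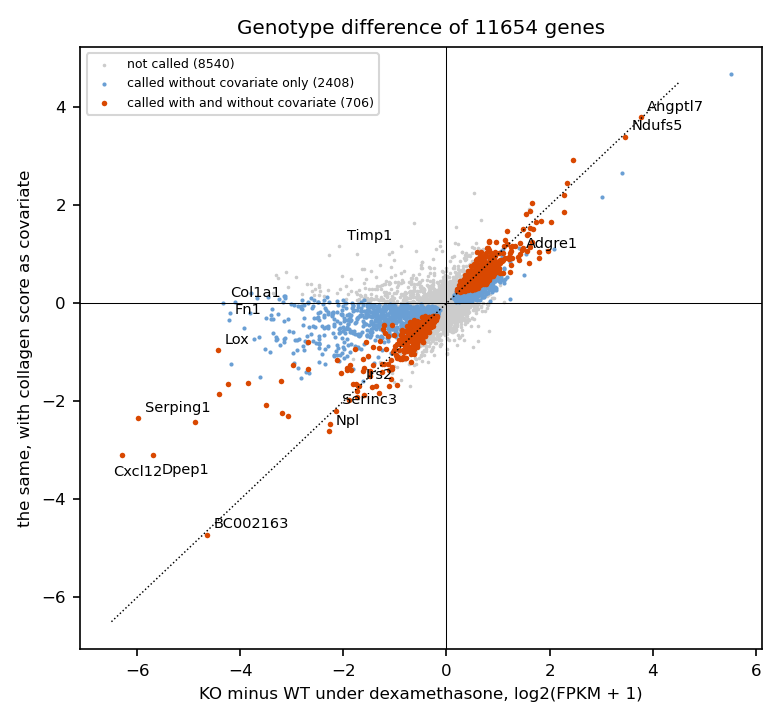
Each point is 1 of 11654 genes, placed by its knockout (KO) minus wild-type (WT) difference under dexamethasone without (x axis) and with (y axis) the collagen score as covariate, both on the log2(FPKM + 1) scale; the dotted line marks equal values. The 2408 genes that differed without the covariate only include steep ones at the left with a much smaller adjusted difference, such as Fn1 (-4.23 and -0.34). Col1a1 (-4.33 and -0.00) is part of the score, so its adjusted difference near 0 was largely fixed in advance. Angptl7 (3.77 and 3.80) and Serinc3 (-2.14 and -2.19) lie near the line.

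Genes of fibroblasts and their matrix were lower in knockout and followed the collagen score. Of 35 listed genes 31 passed the filter on low values, 21 were lower in knockout and none higher, and 30 rose with the score within groups. Over all genes tested these shares were 12.4% lower, 14.3% higher and 12.1% rising. Their median difference was -3.17 without the covariate, beside 0.03 over all genes tested, and 0.03 with it, beside -0.00. The sum of the listed genes was between 39.7 and 328 FPKM in knockout and between 225 and 3199 FPKM in wild type. Fn1 (fibronectin) measured 0.567, 0.643, 6.37 and 11.2 FPKM in knockout and 184, 98.0, 147 and 9.51 FPKM in wild type, so that wild-type replicate 4 again fell among the knockout libraries. Its difference of -4.23 ± 1.28 (limma adjusted p = 0.0282) became -0.34 ± 0.12 with the covariate (limma adjusted p = 0.106). Sparc, a collagen-binding matrix glycoprotein, went from -4.11 to 0.03, and Col1a2 from -3.79 to 0.20. Col1a1, Col1a2 and Col3a1 are on the list and make up the score. Their rise with it and their small adjusted differences were therefore largely fixed in advance. The differences of Col1a1, Col1a2, Col3a1, Fn1, Fstl1 and Sparc missed the threshold without any of knockout replicate 1, knockout replicate 2, wild-type replicate 1 or wild-type replicate 3 (limma adjusted p = 0.0642 to 0.13). Those of Col1a1, Col1a2, Col3a1 and Sparc also missed it without knockout replicate 3 or wild-type replicate 2 (0.0507 to 0.0841), and that of Fn1 without wild-type replicate 2 (0.0567).

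A few matrix genes departed from the collagens. Lox, the enzyme that cross-links collagen, was the 1 listed gene lower in both fits, with 1.72, 1.80, 14.5 and 17.4 FPKM in knockout and 337, 211, 291 and 21.2 FPKM in wild type. Its difference was -0.95 ± 0.23 with the covariate (limma adjusted p = 0.0204), and without wild-type replicate 1 the plain difference of -4.03 had an adjusted p of 0.0513. In the other direction, Timp1 (an inhibitor of matrix metalloproteases), Ccn2 (a matricellular protein), Bgn (biglycan) and Col6a1 did not differ without the covariate and were higher in knockout with it, by 1.17 ± 0.24, 1.01 ± 0.28, 0.64 ± 0.12 and 0.57 ± 0.13. Timp1 measured 17.6 and 22.1 FPKM in knockout replicates 3 and 4, against 6.04 FPKM in wild-type replicate 4. The direction given for these 4 genes holds only relative to collagen.

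The steepest gene lower in knockout in both fits, outside the fibroblast list, was Cxcl12. Cxcl12, the chemokine that marrow stroma uses to retain blood progenitors, measured 0.0140, 0.0191, 0.154 and 0.197 FPKM in knockout and 214, 86.6, 219 and 12.2 FPKM in wild type. The groups did not overlap, which the choice of steepest genes required. Wild-type replicate 4 held 69.2 times the mean of knockout replicates 3 and 4, which flank it in Col1a1. The fitted difference was -6.30 ± 1.16 (limma adjusted p = 0.00224), and -3.10 ± 0.62 with the covariate (limma adjusted p = 0.00695). Knockout cultures with many collagen transcripts in vehicle did contain it: knockout vehicle replicate 4, with 95.8 FPKM of Col1a1, held 33.9 FPKM of Cxcl12.

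The same comparison of wild-type replicate 4 with knockout replicates 3 and 4 was made for the other 11 of the 12 steepest robust lower genes. These 12 were taken only among genes whose groups did not overlap. A higher wild-type value was therefore fixed by the choice, and only its size is described. Islr, an immunoglobulin-domain protein of mesenchymal cells, was 12.6 times as high, Ndrg2, a stress-regulated gene, 14.2 times, and Serping1, the C1 inhibitor of complement, 9.86 times. Serping1 measured 264, 111, 266 and 13.6 FPKM in wild type and at most 1.72 FPKM in knockout. Dpep1 (a membrane dipeptidase) was 7.09 times as high, Ogn (a small proteoglycan) 6.30 times, Sned1 (a matrix protein) 6.21 times and Ptx3 (a secreted pattern recognition protein) 4.34 times. Ctla2a, a cathepsin inhibitor, was 3.10 times as high, and Plpp3, Fst and Vegfd, a lipid phosphatase, the activin antagonist follistatin and a lymphatic growth factor, 2.32, 2.25 and 1.82 times. These ratios compare 1 library with 2 and carry no test. Ndrg2 and Ctla2a stayed under 1 FPKM in all 8 knockout libraries, so they passed the filter on low values only through wild type. With limma voom on the recovered reads 9 of the 12 genes, Cxcl12 included, missed the threshold (adjusted p = 0.0566 to 0.138), and Dpep1, Sned1 and Plpp3 passed.

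Of the 389 robust higher genes Angptl7 differed most. It measured 15.5, 13.7, 14.1 and 16.9 FPKM in knockout and 0.0564, 0.166, 0.0996 and 0.401 FPKM in wild type (3.77 ± 0.10, limma adjusted p = 5.72e-12), and 3.80 ± 0.13 with the covariate. Angptl7 stayed under 1 FPKM in all 8 wild-type libraries, so it passed the filter on low values only through knockout. Ndufs5, a subunit of respiratory complex I, was at 34.5 ± 1.93 FPKM in knockout and 2.27 ± 0.588 FPKM in wild type. BC002163, a near-identical copy of Ndufs5 on chromosome 16, went the other way, with 1.80 ± 0.716 and 67.4 ± 6.17 FPKM. How the counting divided reads between these copies is not given, so both values are uncertain. The same holds for Bcl2a1d and Bcl2a1b, neighbouring copies of an anti-apoptotic BCL2 relative: Bcl2a1d was higher in knockout (8.59 ± 2.32 against 1.33 ± 0.288 FPKM) and Bcl2a1b lower (7.47 ± 0.794 against 17.6 ± 1.92 FPKM).

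Adgre4 and Adgre1 are related adhesion receptors, and the second encodes the macrophage antigen F4/80. Adgre1 measured 792, 664, 662 and 704 FPKM in knockout and 210, 224, 213 and 472 FPKM in wild type. Wild-type replicate 4 was the nearest to knockout, and the difference was 1.42 ± 0.21 without and 1.01 ± 0.21 with the covariate (limma adjusted p = 0.00058 and 0.00981). Among libraries with Col1a1 under 50 FPKM, where wild type under dexamethasone is 1 library, it was 0.58. Adgre4 measured 4.78 ± 1.23 against 0.662 ± 0.559 FPKM.

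A complement regulator and several other genes of this group were higher as well. Cd55, which speeds the decay of complement convertases on the cell surface, was at 26.3 ± 4.30 against 7.58 ± 1.73 FPKM. Its groups did not overlap, as the choice of steepest genes required. Cbr2, a carbonyl reductase, measured 303, 162, 152 and 137 FPKM in knockout, replicate 1 standing apart, and 42.5 to 60.5 FPKM in wild type. Ms4a4c (a 4-span membrane protein with close paralogs), Hal (histidine ammonia-lyase), Tm4sf19 (a tetraspan membrane protein) and Ap1s2 (an adaptor subunit of endosomal vesicles) had differences between 1.67 and 2.27.

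**Figure D3:**
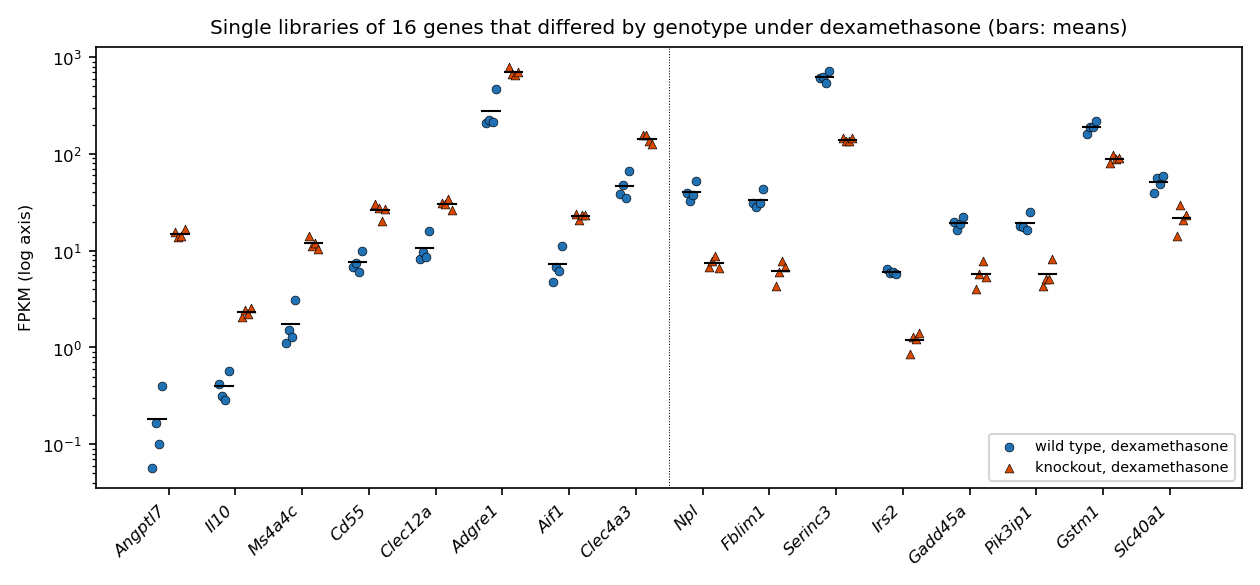
FPKM on a log axis in each of the 4 wild-type (circles) and 4 knockout (triangles) dexamethasone libraries for 8 genes higher in knockout (left of the dotted line) and 8 lower (right of it), with bars at the means. The groups do not overlap in any of the 16 genes, nor in 692 of the 706 genes robust to collagen. For Adgre1 wild-type replicate 4, at 472 FPKM, lies nearest to the knockout libraries.

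The list of macrophage markers showed part of this pattern. Of 16 markers 15 were tested, 7 were higher in knockout and none lower (14.3% and 12.4% of all genes), and Adgre1, Aif1 and Fcgr1 were robust to collagen (3.34% of all genes were robust and higher). Aif1, a calcium-binding actin regulator, measured 23.8, 20.6, 23.4 and 23.5 FPKM in knockout and 4.72, 6.78, 6.21 and 11.2 FPKM in wild type (1.59 ± 0.17, limma adjusted p = 4.52e-05). Itgam, the integrin chain CD11b, differed by 0.99 ± 0.25 (limma adjusted p = 0.0133) and by 0.48 ± 0.24 with the covariate (limma adjusted p = 0.267). Of the 15 markers 5 fell with the collagen score, against 15.2% of all genes. The median over the 15 was 0.18, beside 0.03 over all genes. For 320 of the 389 robust higher genes (82.3%) wild-type replicate 4 was shifted from its group toward knockout, and for 121 of the 317 robust lower genes (38.2%). The part of the fibroblast difference in these values was not tested beyond the covariate.

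Of 25 listed inhibitory and lectin-like receptors and related genes 19 were tested, 8 were higher and 1 lower in knockout, against 14.3% and 12.4% of all genes, and 10 did not pass. Robust to collagen were 6 and 1, against 3.34% and 2.72%. Clec4a3, a C-type lectin with an inhibitory motif, measured 159, 155, 135 and 127 FPKM in knockout and 38.7, 48.3, 35.3 and 66.2 FPKM in wild type (1.63 ± 0.22, limma adjusted p = 0.00025). Its paralog Clec4a2 was at 84.3 ± 11.3 against 31.6 ± 6.42 FPKM, and Clec12a at 30.6 ± 3.18 against 10.6 ± 3.64 FPKM. Cd72 (1.42 ± 0.18), Siglece, a receptor for sialic acids (1.27 ± 0.20), and Pirb, a receptor for class I molecules (0.68 ± 0.10), completed the 6. The lower gene was Npl, which cleaves sialic acid. Havcr2, the receptor TIM-3 on the list of apoptotic cell clearance, was at 4.58 ± 0.356 against 1.36 ± 0.444 FPKM. Paralogs of the Clec4a family lie side by side on chromosome 6, and reads they share are uncertain.

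Receptors for antibody divided. On a list of 24 genes for Fc receptors, complement and phagocytosis 22 were tested, 13 were higher in knockout and none lower (14.3% and 12.4% of all genes), with a median difference of 0.55. Of the 22, 11 fell with the collagen score, against 15.2% of all genes. Of the 22, 3 were robust and higher (3.34% of all genes), Fcgr4 and Fcgr1 among them. Fcgr4, a receptor for IgG, measured 26.9, 22.7, 30.3 and 27.9 FPKM in knockout and 11.5, 11.8, 12.6 and 15.7 FPKM in wild type (1.01 ± 0.13, limma adjusted p = 0.000217). Fcgr1, the high-affinity receptor for IgG, differed by 0.70 ± 0.17, and by 0.44 among libraries with Col1a1 under 50 FPKM. The inhibitory receptor Fcgr2b did not pass, at -0.13 with all libraries and 0.14 without wild-type replicate 4. With the covariate Fcgr2b gave -0.63 and did not pass (limma adjusted p = 0.0729). Among libraries with Col1a1 under 50 FPKM, where wild type under dexamethasone is 1 library, the difference was -0.93. Fcgr3 gave -0.27, which did not pass, and -0.56 with the covariate, which did (limma adjusted p = 0.0214). The scavenger receptor gene Cd36 differed by 1.04 ± 0.27 without the covariate (limma adjusted p = 0.0152) and by 0.43 ± 0.24 with it (limma adjusted p = 0.316).

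The robust lower genes with no called rise with the collagen score were a mixed group. Those in this paragraph were chosen from them after their values were seen. The lack of a called rise does not show which cells made these transcripts. Npl measured 6.73, 7.82, 8.80 and 6.68 FPKM in knockout and 39.9, 32.4, 37.8 and 52.6 FPKM in wild type (-2.28 ± 0.17, limma adjusted p = 1.74e-06). Serinc3, a membrane protein that restricts retroviruses, was abundant and changed with little spread, from 627 ± 76.2 FPKM in wild type to 140 ± 6.04 FPKM in knockout (-2.14 ± 0.09, limma adjusted p = 1.21e-09). Fblim1, a filamin-binding adaptor, stood at 33.5 ± 6.86 FPKM in wild type and 6.24 ± 1.45 FPKM in knockout. Pkig, an inhibitor of protein kinase A, differed by -1.75 ± 0.10, the zinc finger gene Zfp949 by -1.73 ± 0.12, the transcriptional corepressor gene Nab1 by -1.45 ± 0.14 and Ypel3 by -1.26 ± 0.12. Mmp9, the gelatinase of macrophages and osteoclasts, measured 4.18, 3.85, 3.61 and 3.79 FPKM in knockout and 19.5, 14.5, 33.5 and 9.61 FPKM in wild type. Its groups did not overlap, although the wild-type libraries differed among themselves by more than 3-fold.

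Among the FOXO factors Foxo1 did not differ and Foxo4 was lower. Foxo1 was at 2.81 ± 0.1003 FPKM in knockout and 3.01 ± 0.0700 FPKM in wild type (limma adjusted p = 0.343). Foxo4 measured 13.1, 12.2, 13.2 and 13.3 FPKM in knockout and 17.8, 14.3, 17.99 and 19.7 FPKM in wild type, with no overlap (-0.39 ± 0.08, limma adjusted p = 0.0046). Of 18 tested FOXO factors and upstream signalling genes, 2 were higher and 5 lower (14.3% and 12.4% of all genes), and 4 were robust, against 6.06% of all genes. Tsc1, a brake on the kinase mTORC1, was among them and lower (-0.43 ± 0.07).

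Known FOXO targets were lower more often than higher. Of 39 listed genes 35 were tested, 14 were lower and 6 higher in knockout, against 12.4% and 14.3% of all genes, and 11 and 3 were robust to collagen, against 2.72% and 3.34%. The median difference was -0.24, and -0.27 with the covariate. The list was chosen with earlier results of these data known, so its direction is not independent evidence. Irs2, the insulin receptor substrate, showed the largest robust difference: it measured 0.849, 1.27, 1.22 and 1.40 FPKM in knockout and 6.49, 5.83, 5.98 and 5.77 FPKM in wild type (-1.69 ± 0.12, limma adjusted p = 1.31e-06). Every wild-type library was above every knockout library, in vehicle as well.

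The robust lower targets covered several of the pathway's roles. Gadd45a, a stress-induced gene of growth arrest and DNA repair, measured 4.05, 5.74, 7.80 and 5.40 FPKM in knockout and 19.8, 16.3, 18.8 and 22.3 FPKM in wild type (-1.61 ± 0.28). The cell cycle inhibitor Cdkn1b (-0.51 ± 0.08) and the cyclin Ccng2 (-0.59 ± 0.06) were also lower. Of the autophagy genes, Gabarapl1 went from 103 ± 8.48 FPKM in wild type to 51.7 ± 2.22 FPKM in knockout, and Map1lc3b from 36.9 ± 2.14 to 26.4 ± 0.434 FPKM. Both encode proteins that are attached to the growing autophagosome. Pink1, a kinase that marks damaged mitochondria, differed by -0.58 ± 0.10, the phosphatase Ctdsp2 by -0.74 ± 0.09, and the repressor Bcl6 by -0.36 ± 0.10. S1pr1, a receptor for sphingosine 1-phosphate, differed by -1.42 ± 0.23 and rose with the collagen score. Bcl6 missed the threshold without knockout replicate 1, wild-type replicate 1 or wild-type replicate 3 (limma adjusted p = 0.0658 to 0.0745). Pik3ip1, an inhibitor of PI3 kinase that is on none of the lists, was chosen after its value was seen: it measured 4.37, 5.09, 5.13 and 8.24 FPKM in knockout and 18.02, 17.5, 16.5 and 25.1 FPKM in wild type.

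Other FOXO targets were higher or did not differ. Cdkn1a, the cell cycle inhibitor p21, was at 95.6 ± 9.24 FPKM in knockout and 76.5 ± 6.01 FPKM in wild type (0.32 ± 0.09, limma adjusted p = 0.0251), and missed the threshold without knockout replicate 3, knockout replicate 4 or wild-type replicate 2 (limma adjusted p = 0.0579 to 0.07). Pik3r1, the regulatory subunit of PI3 kinase (0.37 ± 0.08), and Trib1, a pseudokinase (0.45 ± 0.08), were robust and higher. Sesn1, an antioxidant sestrin, was higher by 0.46 ± 0.11 without the covariate and by 0.27 ± 0.12 with it (limma adjusted p = 0.211). Cited2, a transcriptional coregulator, gave -0.24 ± 0.10 (limma adjusted p = 0.0863).

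The forkhead motif was looked for in promoters of the robust lower and robust higher genes. Members of each set share a direction because the sets were chosen by it. The motif searched was GTAAACA on both strands, in windows from 250 bases before to 50 after each annotated start (RefSeq, GRCm38.p6). It occurred in 24 of 359 promoters (6.69%) of the robust lower genes, which belonged to 21 of the 253 genes with a promoter in the table. Among robust higher genes it occurred in 10 of 373 promoters (2.68%), among all tested genes in 278 of 10921 (2.55%) and among all 32851 promoters in 3.65%. On the FOXO list it occurred in 3 of 34 promoters of tested genes (8.82%). It occurred in none of the 11 promoters found for 9 of the 11 robust lower genes of the FOXO list, which says only that these letters are not in those windows. A match is a description and not a binding site. The stretches around 5 of these matches are shown because no annotated exon overlaps the stretch, and their genes were chosen after their values were seen. Each is written 5′ to 3′ on the gene's strand, with the motif or its reverse complement in capitals.
Pdpn: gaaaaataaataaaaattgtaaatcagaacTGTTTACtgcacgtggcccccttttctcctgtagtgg
Casp4: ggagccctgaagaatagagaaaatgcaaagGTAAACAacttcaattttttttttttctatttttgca
Tprgl: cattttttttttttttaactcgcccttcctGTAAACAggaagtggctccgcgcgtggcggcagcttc
Hdac7: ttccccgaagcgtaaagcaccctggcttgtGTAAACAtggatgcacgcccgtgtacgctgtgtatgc
Cry1: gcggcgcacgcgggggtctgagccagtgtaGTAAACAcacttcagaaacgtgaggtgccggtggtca

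The Pdpn stretch is chr4:143299681-143299747 (minus strand), with the match starting 153 bases before the start of the gene. The other stretches are chr9:5308610-5308676 (plus strand) for Casp4, chr4:154160859-154160925 (minus strand) for Tprgl, chr15:97831842-97831908 (minus strand) for Hdac7 and chr10:85185113-85185179 (minus strand) for Cry1, with matches 209, 211, 111 and 95 bases before the start. Pdpn, a mucin-like membrane glycoprotein, measured 0.848, 0.833, 1.45 and 2.19 FPKM in knockout and 5.85, 6.93, 6.62 and 3.33 FPKM in wild type (-1.52 ± 0.26, limma adjusted p = 0.00146). Tprgl went from 68.0 ± 4.02 FPKM in wild type to 36.1 ± 1.05 FPKM in knockout (-0.89 ± 0.08, limma adjusted p = 5.63e-06). Hdac7, a histone deacetylase, differed by -0.88 ± 0.16 and Cry1, a repressor of the circadian clock, by -0.85 ± 0.11. Casp4, an inflammatory caspase, differed by -0.96 ± 0.31 with overlapping groups, and it missed the threshold without any 1 of the dexamethasone libraries except wild-type replicate 1 (limma adjusted p = 0.051 to 0.0833).

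Of 28 listed targets of the glucocorticoid receptor itself 25 were tested. In knockout 3 were higher, against 14.3% of all genes, and 7 lower, against 12.4%, with a median difference of -0.14. None was robust and higher, and Irs2, Ampd3, Bcl2l1 and Per2 were robust and lower, against 2.72% of all genes. Nr3c1 was at 10.3 ± 0.618 FPKM in knockout and 8.84 ± 1.68 FPKM in wild type (0.22 ± 0.12, limma adjusted p = 0.203). Fkbp5, the co-chaperone most used as a marker of receptor activity, measured 114, 103, 96.4 and 105 FPKM in knockout and 82.9, 72.7, 80.3 and 90.3 FPKM in wild type. Its groups did not overlap (0.36 ± 0.08, limma adjusted p = 0.00562), and with the covariate the difference was 0.32 ± 0.10 (limma adjusted p = 0.0625). Tsc22d3, the glucocorticoid-induced leucine zipper, measured 341, 315, 293 and 314 FPKM in knockout and 210, 199, 211 and 308 FPKM in wild type, where replicate 4 reached the knockout range. It differed by 0.47 ± 0.19 (limma adjusted p = 0.0837), by 0.61 without wild-type replicate 4 (limma adjusted p = 0.0213) and by -0.04 ± 0.12 with the covariate.

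The robust lower receptor targets did not overlap between the groups, nor did 310 of all 317 robust lower genes (97.8%). Bcl2l1, the survival protein BCL-XL, measured 19.7, 20.7, 23.7 and 20.3 FPKM in knockout and 39.2, 34.5, 40.4 and 34.1 FPKM in wild type (-0.78 ± 0.10, limma adjusted p = 0.000219). Ampd3, an AMP deaminase, was at 10.5 ± 0.941 against 20.8 ± 1.63 FPKM and Per2, a clock gene, at 0.806 ± 0.213 against 1.61 ± 0.110 FPKM. Receptor targets that did not differ in either fit included Klf9 (-0.18 ± 0.13), Zbtb16 (-0.09 ± 0.11) and Dusp1, a phosphatase of MAP kinases (-0.35 ± 0.16), with limma adjusted p of 0.317, 0.588 and 0.12. Ddit4, an inhibitor of mTORC1, measured 374, 330, 308 and 348 FPKM in knockout and 215, 187, 191 and 260 FPKM in wild type. The groups did not overlap, but the shared spread estimate, which includes the vehicle libraries, gave an error of 0.49 for its difference of 0.68 (limma adjusted p = 0.318); fitted on the 8 dexamethasone libraries alone it passed (limma adjusted p = 0.00803), and with the covariate it was higher by 1.70 ± 0.46 (limma adjusted p = 0.0356). Pdk4, an inhibitor of pyruvate oxidation, measured 0.178 to 3.13 FPKM in knockout and 36.8, 29.5, 34.4 and 2.68 FPKM in wild type, rose with the collagen score, and differed by -0.84 ± 0.32 with the covariate (limma adjusted p = 0.136). Cebpd, a transcription factor of myeloid cells, likewise went from -0.83 ± 0.19 to -0.42 ± 0.17 (limma adjusted p = 0.164).

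Interferon-induced genes were higher in knockout where they passed. All 36 listed genes were tested, 21 were higher and none lower (14.3% and 12.4% of all genes), with a median difference of 0.54. Robust and higher were 7, against 3.34% of all genes, and the median with the covariate was 0.38. Irf7, the factor that amplifies the interferon response, measured 18.4, 13.7, 11.8 and 11.2 FPKM in knockout and 3.27, 4.05, 4.89 and 6.58 FPKM in wild type (1.38 ± 0.23, limma adjusted p = 0.00113). Ddx58, the RNA sensor RIG-I, was at 9.20 ± 0.410 against 5.60 ± 0.550 FPKM, Zbp1, a sensor of left-handed nucleic acid, at 3.06 ± 0.277 against 1.48 ± 0.212 FPKM, and Xaf1, a pro-apoptotic protein, at 2.52 ± 0.315 against 1.47 ± 0.264 FPKM. The GTPase genes Gbp7 (0.81 ± 0.24), Ifi47 (0.67 ± 0.23) and Irgm1 (0.57 ± 0.14) completed the 7. Among libraries with Col1a1 under 50 FPKM, wild type under dexamethasone is 1 library. There Irf7 gave 0.94, Ddx58 0.52, Zbp1 0.71, Xaf1 0.30, Gbp7 0.63 and Irgm1 0.43. Ifi47 missed the threshold without any 1 library except knockout replicate 4 (limma adjusted p = 0.0595 to 0.114), and Gbp7 without knockout replicate 2, knockout replicate 3, wild-type replicate 1 or wild-type replicate 3 (0.0505 to 0.0835).

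Not all members of the interferon list followed. Ifit1 and Ifit2, which bind foreign RNA and are among the most induced interferon genes, were near 1 FPKM in both groups and gave -0.04 ± 0.17 and 0.19 ± 0.14 (limma adjusted p = 0.869 and 0.353). Ifit3 was higher without the covariate (0.76 ± 0.16) and gave 0.59 ± 0.20 with it (limma adjusted p = 0.0871). Oas3, an activator of RNA decay, gave 0.89 ± 0.23 and 0.31 ± 0.16 (limma adjusted p = 0.0128 and 0.262).

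Of 13 tested genes of class I antigen presentation 7 were higher and none lower (14.3% and 12.4% of all genes), with a median of 0.34, and 4 were robust and higher (3.34% of all genes). B2m, the light chain of class I molecules, measured 2490, 2168, 2368 and 2105 FPKM in knockout and 1201, 1468, 1555 and 1512 FPKM in wild type (0.67 ± 0.10, limma adjusted p = 0.000376). As 1 of the most abundant transcripts it depended on scaling, with 0.11 after quantile normalization (limma adjusted p = 0.434). H2-K1, a class I heavy chain, was at 428 ± 38.7 against 291 ± 34.5 FPKM. The peptide transporter Tap1 (0.58 ± 0.20) and the immunoproteasome subunit Psmb9 (0.62 ± 0.18) passed, but Tap1 missed the threshold without any 1 of the 8 libraries (limma adjusted p = 0.0605 to 0.0998). Psmb9 was lost without knockout replicate 1 or 3 or wild-type replicate 1 or 2 (0.0508 to 0.0659).

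Class II genes gave a different picture, with large spread among the knockout libraries. H2-Ab1, a class II chain, measured 1.53, 3.28, 6.42 and 4.92 FPKM in knockout and 3.01, 1.69, 2.56 and 3.45 FPKM in wild type, and Cd74, the invariant chain, 60.3, 108, 188 and 156 against 65.7, 74.9, 51.1 and 104 FPKM. The groups overlapped for both (limma adjusted p = 0.496 and 0.147). On the list of 13 tested genes 6 were higher and none lower, against 14.3% and 12.4% of all genes, and Cd86, a costimulatory ligand, was the 1 robust member, at 4.57 ± 0.448 against 2.68 ± 0.741 FPKM. Cd86 missed the threshold without any 1 of the 4 knockout libraries, wild-type replicate 1 or wild-type replicate 3 (limma adjusted p = 0.0537 to 0.125).

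The interferon-stimulated response element was searched in the same promoter windows, as GAAA, any 2 bases and GAAA again, on both strands. It occurred in 25 of 373 promoters (6.70%) of the robust higher genes, 3 of 359 (0.836%) of the robust lower genes, 348 of 10921 (3.19%) of all tested genes and 20 of 32 (62.5%) of the interferon list. In the stretches below, from robust higher genes off the interferon list, chosen after their values were seen, the capitals mark the element or its reverse complement.
Aif1: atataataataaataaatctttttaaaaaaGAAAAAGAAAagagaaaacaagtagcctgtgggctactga
Clec4b1: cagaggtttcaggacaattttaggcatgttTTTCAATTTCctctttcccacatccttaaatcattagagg
Tgfbi: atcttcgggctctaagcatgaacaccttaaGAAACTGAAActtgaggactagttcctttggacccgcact

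These lie at chr17:35176170-35176239 (minus strand), chr6:123049857-123049926 (plus strand) and chr13:56609362-56609431 (plus strand), with the match 157, 75 and 194 bases before the start. Aif1 was described above. Clec4b1, a C-type lectin, measured 6.04, 4.86, 4.69 and 6.23 FPKM in knockout and 0.930, 1.63, 1.03 and 1.91 FPKM in wild type (1.46 ± 0.19, limma adjusted p = 0.000219). Tgfbi, a secreted adhesion protein induced by TGF-beta, was at 102 ± 15.9 against 41.7 ± 9.39 FPKM.

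Of the lists with 10 or more tested genes, the antioxidant list had the highest share of robust lower members. Of 26 listed genes 25 were tested, 13 were lower and 2 higher in knockout, and 10 were robust and lower, with a median difference of -0.39. The shares over all genes were 12.4% and 14.3%, and 2.72% for robust and lower. Several genes of glutathione synthesis and use were among the 10. Gclc and Gclm, both subunits of the enzyme that starts glutathione synthesis, went from 17.7 ± 1.83 to 9.39 ± 0.405 FPKM and from 23.4 ± 5.69 to 13.95 ± 1.81 FPKM. Gsr, which regenerates reduced glutathione, measured 18.3, 22.2, 20.3 and 23.2 FPKM in knockout and 34.6, 43.4, 43.2 and 49.2 FPKM in wild type (-0.98 ± 0.10, limma adjusted p = 3.33e-05). Gstm1, a glutathione transferase, measured 80.3, 96.5, 88.7 and 91.9 FPKM in knockout and 162, 189, 189 and 217 FPKM in wild type (-1.07 ± 0.22, limma adjusted p = 0.00396), and Gsta3 differed by -0.76 ± 0.15. None of these 5 group pairs overlapped, which held for 97.8% of all robust lower genes. Gss, which completes glutathione synthesis, missed the threshold at -0.20 (limma adjusted p = 0.179) and passed on the 8 dexamethasone libraries alone (limma adjusted p = 0.0378).

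Genes of the thioredoxin and peroxidase systems went both ways. Txnrd1, thioredoxin reductase, was at 20.9 ± 1.45 against 33.2 ± 2.10 FPKM, and Srxn1, which repairs oxidized peroxiredoxins, at 25.2 ± 2.64 against 39.6 ± 3.71 FPKM. Prdx6 (-0.57 ± 0.10) and Gpx4, the peroxidase of membrane lipids (-0.32 ± 0.08), were robust and lower as well. The peroxidase genes Gpx1 (0.43, limma adjusted p = 0.0226) and Prdx3 (0.17, limma adjusted p = 0.0357) were higher without the covariate and not robust, and lost their calls without any 1 of 3 and of 6 libraries. Nfe2l2, whose protein NRF2 drives many of these genes, and its inhibitor Keap1 did not differ, with -0.07 ± 0.07 and -0.10 ± 0.07 (limma adjusted p = 0.505 and 0.326). The antioxidant response element, searched as TGACNNNGC on both strands, occurred in 62 of 359 promoters (17.3%) of the robust lower genes and in 62 of 373 (16.6%) of the robust higher genes, beside 14.7% of promoters of all tested genes. On the antioxidant list it occurred in 7 of 26 promoters of tested genes (26.9%). For the robust lower members of that list it was 4 of 12 (33.3%). These shares were not tested.

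Iron genes were called in both directions. Tfrc, the receptor for iron uptake, measured 67.9, 79.8, 84.5 and 57.7 FPKM in knockout and 21.1, 23.5, 20.0 and 28.1 FPKM in wild type (1.60 ± 0.31, limma adjusted p = 0.00316), and Ncoa4, which delivers ferritin for breakdown, was higher by 0.54 ± 0.08. Slc40a1, the iron exporter ferroportin and also a FOXO target, measured 14.2, 29.6, 20.8 and 23.1 FPKM in knockout and 39.3, 56.9, 49.2 and 58.8 FPKM in wild type (-1.21 ± 0.20). Hmox1, which frees iron from heme, was at 555 ± 65.3 against 821 ± 62.3 FPKM, and Blvrb, which acts on the products of heme breakdown, at 59.9 ± 6.14 against 87.7 ± 15.6 FPKM. In all, 19 listed genes were tested, 3 were higher and 5 lower, against 14.3% and 12.4% of all genes, and 2 and 4 were robust, against 3.34% and 2.72%.

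Of 26 autophagy genes 8 were lower and 1, Atg3 (0.38, limma adjusted p = 0.0332), higher, against 12.4% and 14.3% of all genes. Atg3 lost its call without any 1 of 6 libraries. Robust and lower were 5, against 2.72%. Beside Gabarapl1, Map1lc3b and Pink1 these were Sqstm1, the cargo receptor p62, at 145 ± 5.57 against 224 ± 29.6 FPKM, and Wipi2, which acts in autophagosome formation, at 6.58 ± 0.273 against 9.65 ± 0.804 FPKM. Of 23 tested genes of endoplasmic reticulum and amino acid stress 7 were lower and none higher, against 12.4% and 14.3% of all genes. Atf4, the transcription factor at the head of the amino acid response, measured 28.9, 29.2, 26.99 and 26.5 FPKM in knockout and 43.5, 45.1, 45.9 and 40.3 FPKM in wild type (-0.63 ± 0.06, limma adjusted p = 6.74e-06). Trib3 (-0.78 ± 0.12) and Ppp1r15a (-0.75 ± 0.11), a pseudokinase and a phosphatase subunit that follow ATF4, were lower too.

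Of 20 tested genes on an inflammatory list 7 were higher and 1 lower in knockout, against 14.3% and 12.4% of all genes. Robust and higher were 2, against 3.34%, and none was robust and lower. Of 19 tested chemokine and chemokine receptor genes 1 was higher and 4 lower. Robust were 1 and 4 of these, against 3.34% and 2.72%. The chemokine genes Ccl3 and Ccl4 were lower in knockout: Ccl3 measured 14.5, 16.5, 18.03 and 14.5 FPKM in knockout and 30.2, 37.8, 41.03 and 29.04 FPKM in wild type (-1.06 ± 0.18, limma adjusted p = 0.00152), and Ccl4 differed by -0.94 ± 0.20. Ccl6 was at 428 ± 24.2 against 636 ± 88.8 FPKM. The anti-inflammatory cytokine Il10 was higher, at 2.05, 2.47, 2.24 and 2.54 FPKM against 0.418, 0.312, 0.287 and 0.572 FPKM (1.25 ± 0.15, limma adjusted p = 9.61e-05), as was the adhesion molecule Icam1 (1.04 ± 0.15). Tnf stayed under 1 FPKM in all 8 libraries and did not differ (-0.15 ± 0.16, limma adjusted p = 0.53). On the apoptosis list of 20 tested genes 5 were higher and 5 lower, against 14.3% and 12.4% of all genes. Robust and higher were 2 and robust and lower 3, against 3.34% and 2.72%.

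Other lists varied, beside 3.34% of all genes robust and higher and 2.72% robust and lower. Of 20 tested integrin and adhesion genes 7 were higher and 2 lower in knockout, against 14.3% and 12.4% of all genes. Of these, 3 and 1 were robust. No member of 29 lysosomal genes, 22 cholesterol synthesis genes or 28 cytosolic ribosomal protein genes was robust, although 9 lysosomal genes were higher without the covariate (14.3% of all genes). Respiratory chain genes gave 3 robust and higher of 29, Ndufs5 among them. Cell cycle genes gave 2 of 33, also higher, Cdkn1a and the replication factor Mcm3 (0.63 ± 0.10). Slc2a1, the glucose transporter GLUT1, was lower, at 7.30 ± 0.684 against 15.4 ± 3.12 FPKM, on a glycolysis list with 1 robust higher and 2 robust lower genes of 25.

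**Figure D4:**
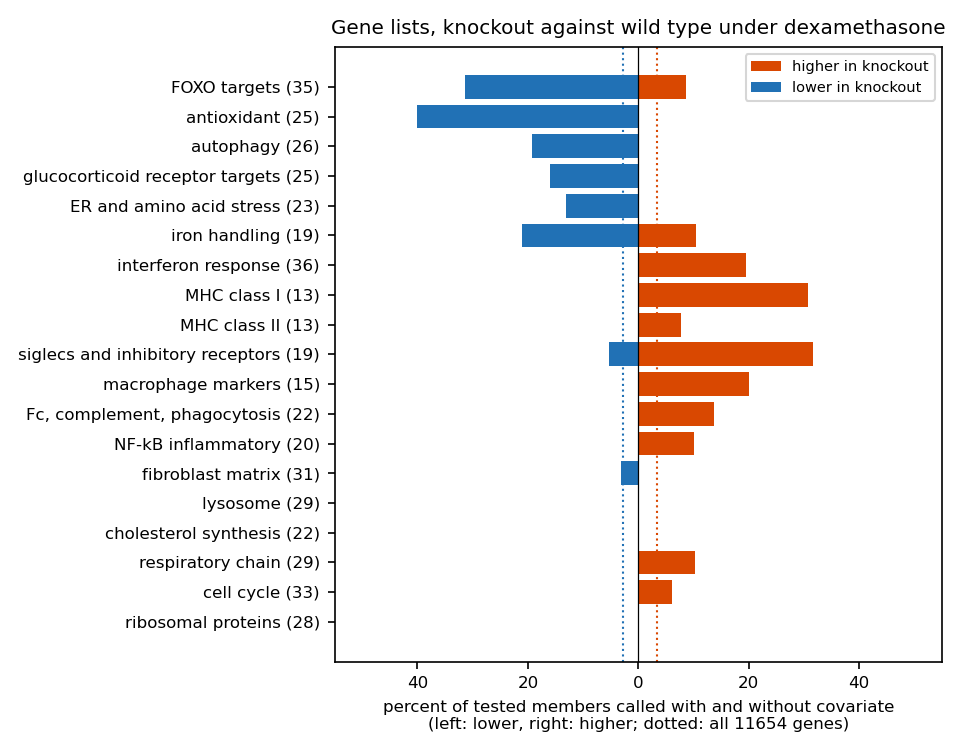
Bars give, for each list with its number of tested genes, the percentage of members that differed in the same direction with and without the collagen covariate, lower in knockout to the left and higher to the right; dotted lines mark the same for all 11654 genes, 2.72% and 3.34%. Antioxidant (10 of 25) and FOXO target genes (11 of 35) reach farthest left, and inhibitory receptors (6 of 19) and class I genes (4 of 13) farthest right.

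The same genotype comparison in vehicle gave fewer differences: 545 genes (4.68%), 393 higher (3.37%) and 152 lower (1.3%) in knockout. It compares other libraries than those above. Both comparisons share the spread and the collagen slope, which were estimated from all 16 libraries, so they are not fully separate. With the collagen covariate 337 differed in vehicle (2.89%), 1.52% of genes higher and 1.37% lower. Of the 389 robust higher genes 145 (37.3%) were also higher in vehicle, and of the 317 robust lower genes 82 (25.9%) were also lower. The sign was the same in vehicle for 364 of the 389 and 268 of the 317. Angptl7 (3.62), Npl (-2.48), Fblim1 (-2.16) and Slc40a1 (-1.91) differed in vehicle in the same direction, whereas Ccl3 gave 0.01, Ifi47 0.06 and Irgm1 0.02 there, none of which passed. The interaction was not called for these 7 genes. The vehicle count was 1285 without knockout replicate 4, 1623 without wild-type replicate 3, and between 278 and 347 without any 1 of the other 6 vehicle libraries. Of the vehicle calls 72.1% were higher in knockout, against 60.4% with median-ratio scaling, 61.6% with quantile normalization and 52.5% with the collagen covariate.

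**Figure D5:**
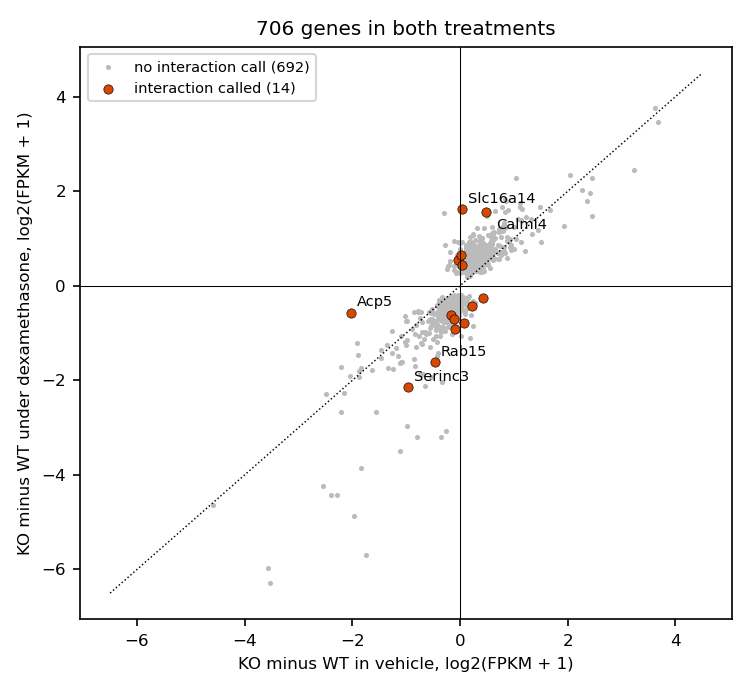
Each point is 1 of the 706 genes robust to collagen, placed by its knockout (KO) minus wild-type (WT) difference in vehicle (x axis) and under dexamethasone (y axis) on the log2(FPKM + 1) scale, with the dotted line at equal values. Most points have the same sign on both axes, and the interaction was called for 14, of which Slc16a14, Calml4, Rab15, Serinc3 and Acp5 have a term above 1 in size.

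A test of the difference between the 2 genotype differences was called for 15 genes (0.129%), 7 with a positive (0.0601%) and 8 with a negative term (0.0686%), and 14 of them are among the 706. Serinc3 differed by -2.14 under dexamethasone and by -0.98 in vehicle, and its interaction term was -1.17 (limma adjusted p = 0.0016). Slc16a14, a carrier of the monocarboxylate transporter family, measured 4.75, 3.81, 4.40 and 6.20 FPKM in knockout and 0.888, 0.672, 0.449 and 1.60 FPKM in wild type under dexamethasone, and differed by 0.04 in vehicle (interaction 1.59, limma adjusted p = 0.026). Bcl2l1 differed by -0.78 under dexamethasone and 0.07 in vehicle, and Atf4 by -0.63 and -0.16, with limma adjusted interaction p of 0.039 for each. Acp5, the phosphatase TRAP of osteoclasts, differed by -0.57 under dexamethasone and -2.03 in vehicle, and the first value missed the threshold without knockout replicate 3, knockout replicate 4 or wild-type replicate 3 (limma adjusted p = 0.0543 to 0.0612). Clec7a, the beta-glucan receptor dectin-1, which the annotation lists as a polymorphic pseudogene, differed by 0.56 under dexamethasone and by -0.52 in vehicle. The number of interaction calls was 330 without wild-type dexamethasone replicate 4 and 32 without knockout vehicle replicate 4, and between 2 and 11 without any 1 of the other 14 libraries.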

How the data were processed

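RNA-seq libraries of 16 cultures were analysed, 4 for each genotype and treatment. The authors deposited 1 file of FPKM values per library. Per the submitters' processing notes, the tools included DESeq2, HTSeq 0.6.1, TopHat2 2.0.12 and Bowtie2 2.2.3, and the builds GRCm38 and mm10. The sources used here name no parameters or strand setting for the counting, so overlapping or antisense genes cannot be told apart. Of 54532 gene identifiers 54495 were named by GENCODE M21. FPKM steps gave whole reads (within 0.05 of a read) for 96.3% to 96.7% of values.

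Genes with at least 1 FPKM in 4 of 16 libraries were tested as log2(FPKM + 1) with limma 3.58.1 (R 4.3.3) on 4 group means, with trend and Benjamini-Hochberg adjustment at 0.05, and again with the collagen score as a covariate. On simulated data of 11654 genes for the dexamethasone comparison, 91 of 100 genes shifted by 1 and 96 of 100 shifted by 2 were called, and 4.59% of calls were unshifted. The simulated noise was normal and independent between genes and libraries, with each gene's own spread. It held no collagen difference shared by many genes, so these rates do not cover calls that follow collagen in the real libraries. The rule for named genes took the 12 largest differences in each direction that passed both fits without overlap, the 6 largest of the fibroblast list, up to 4 called and the first 3 members of each list, the 6 largest interaction terms, the collagen score and 6 genes of the study's subject. Other named genes were chosen after their values were seen, and some genes the rule takes are not reported here. The members and lists were chosen with earlier results of these data known. Other scalings, filters, pseudocounts, tests and left-out libraries were tried.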

Additional observations from a re-analysis of the deposited data

Results flagged for a closer look

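In groups of 4, a library was singled out where its gap to the nearest other library exceeded Dixon's 95% critical value. Chance flags about 1 in 20 groups, and 15 of the 316 groups (158 genes in each genotype under dexamethasone) were flagged. Wild-type replicate 4 accounted for 7 of them, with FPKM of 308.4 for Tsc22d3, 6.036 for Timp1, 471.7 for Adgre1, 792.9 for Csf1r, 87.4 for Pirb, 52.17 for Per1 and 7.281 for Irgm1. Its collagen score was also below that of the other wild-type libraries, at 3.73 against 6.87 to 7.71. The part of the collagen difference in these values was not tested. Knockout replicate 1 was flagged with FPKM of 302.8 for Cbr2, 223.1 for Sult1a1, 21.26 for Srxn1 and 125.4 for Tgfbi, and knockout replicate 2 with 12.24 for Foxo4, 20.57 for Aif1 and 1.122 for Per2. Wild-type replicate 3 was flagged with 16.53 FPKM for Pik3r1.

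For 9 of the genes named here the knockout difference under dexamethasone differed from that in vehicle by limma's interaction test. The terms were -1.169 for Serinc3, -0.8524 for Bcl2l1, -0.684 for Slc11a2 (an iron transporter), -0.4682 for Atf4, 1.458 for Acp5, 1.588 for Slc16a14, -1.14 for Rab15 (a vesicle GTPase), 1.078 for Calml4 (a calmodulin-like protein) and 1.077 for Clec7a.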

How the results depend on the processing

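The 3114 genes of the dexamethasone comparison became 914 with the collagen covariate, 1954 at a mean FPKM of at least 5, 6388 with library weights, 5158 without the 3 libraries that stood apart in collagen and 390 in libraries with Col1a1 under 50 FPKM. The 914 with covariate became 124 on the compared groups alone and 1386 with limma voom on recovered reads. The 3180 collagen slopes became 1917 at the higher FPKM filter and 360 without the 3 libraries. The 545 of vehicle became 337 with the covariate, 4840 with library weights, 244 on the compared groups alone, 3958 without the 3 libraries and 60 in low-collagen libraries. The 15 interaction calls became 102 with the covariate, 9 with any value above 0, 25 with the filter on dexamethasone libraries, 1391 with weights, 725 without the 3 libraries, 1 in low-collagen libraries and 6 with voom. The voom and low-collagen settings were chosen after seeing the data. The collagen score difference was -5.02 without wild-type replicate 4 (exact permutation p = 0.0286). With the covariate the difference of 6 named genes of the fibroblast list changed sign from negative to positive. Col1a2 (0.20) and Sparc (0.034) passed only without the covariate. Timp1 (1.17), Ccn2 (1.01), Col6a1 (0.57) and Bgn (0.64) passed only with it. Other members of the list, not named here, changed sign as well. The causes were not tested, beyond fewer genes or libraries entering some settings.

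Leaving out single libraries gave 1517 to 4070 genes under dexamethasone, 623 to 1392 with the covariate, 2020 to 3711 slopes, 278 to 1623 in vehicle, 2 to 330 interaction calls and a collagen score difference of -5.02 to -3.64. Same-numbered knockout and wild-type libraries under dexamethasone correlated at -0.331, -0.204, 0.354 and -0.475 in their deviations from group means. Differently numbered libraries that stood apart in collagen correlated more strongly, such as wild-type dexamethasone replicate 4 and wild-type vehicle replicate 3 at 0.788. Differences in collagen could hide a pairing, so these values do not settle whether the numbers pair libraries. With the replicate block 2203 genes passed under dexamethasone, 762 with the covariate, 377 in vehicle, 3064 slopes and 1 interaction. Of the 158 genes named here, 9 others changed sign under some setting without passing the threshold in either fit. With the covariate 133 kept their side of the threshold, as did 143 with voom and 95 in low-collagen libraries, where wild type under dexamethasone is 1 library. Values near 1 FPKM limit what could be detected.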

Other observations

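The robust genes with a difference of at least 1 on the log2 scale, 128 in all, make up 1.1% of those tested. Among the 280 windows of 10 Mb examined, the one from 140 to 150 Mb of chromosome 4 held 8 of 74 tested genes (10.8%): Angptl7, Fblim1, Pdpn, Plod1, Fbxo44 and the zinc finger or predicted genes Zfp991, Zfp984 and Gm13212. The window from 130 to 140 Mb of chromosome 1 held 5 of 67 (7.46%). The window from 80 to 90 Mb of chromosome 9 held 4 of 30 (13.3%), and that from 160 to 170 Mb of chromosome 2 held 4 of 72 (5.56%), Serinc3, Pkig, Mmp9 and 0610039K10Rik. Serinc3 and 0610039K10Rik overlap head to head and cannot be told apart without the strand setting. Within 10 Mb of Foxo3 itself 54 genes were tested, 10 differed (18.5%, against 26.7% of all genes) and 2 were robust to collagen (3.70%, against 6.06%). These windows were picked after their values were seen, and whether the genotypes differ in flanking alleles was not tested.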
